A study of Arabidopsis with 24 samples.

Results

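The transcriptomes of dvl1-1D and bsk36 seedlings of Arabidopsis were compared with each other after low R:FR light, the low ratio of red to far-red light that a plant meets under a canopy. dvl1-1D carries an activation-tagging T-DNA in the promoter of RTFL18 (also named DVL1) and overexpresses that gene, and bsk36 is the double T-DNA insertion mutant of BSK3 and BSK6. Both lines are in the Col-0 background, and each stands for 1 allele or 1 allele pair, so an effect of the gene and an effect of other changes in the line cannot be told apart. Seedlings were grown in white light (WL) for 6 days and then kept for 6 h in low R:FR (R:FR of 0.3), and whole seedlings were sequenced in 3 libraries per genotype. The same genotypes kept in WL, and Col-0 in low R:FR and in WL, served as further points of comparison, with 3 libraries in each. The model fitted to the values also took in the pif4 pif7 double mutant (pif47) in each light, again with 3 libraries in each. The labels do not say whether libraries came from separately grown seedlings, so p-values measure the spread between libraries, which may be technical. The values are FPKM (fragments per kilobase of transcript, scaled to the size of each library), and the 19311 genes with a mean of at least 1 FPKM over the 6 low R:FR libraries of dvl1-1D and bsk36 were tested, out of 32833 in the file. At the edge of this filter, the lowest gene kept had a mean of 1.00 FPKM and the highest gene left out 0.998 FPKM. Of the genes tested, 96.1% were protein-coding in RefSeq.

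RTFL/DVL genes encode small peptides of a plant-specific family, and overexpression of several members is known to shorten plant organs. BSK proteins are membrane-anchored kinase-like proteins that pass the brassinosteroid (BR) signal from the receptor BRI1 towards the GSK3-like kinase BIN2, which holds back the transcription factors BZR1 and BES1. In shade, phytochrome B is inactivated, PIF transcription factors act, and auxin and BR together drive hypocotyl elongation. One line thus has more of a peptide studied as a partner of BSKs and the other lacks a pair of BSKs, and the comparison asks where their transcript profiles part in low R:FR.

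The mutated genes were read out as the labels say. RTFL18 was at 975, 965 and 788 FPKM in the dvl1-1D libraries, against 5.56, 11.1 and 8.50 FPKM in bsk36, and at 12.9, 12.8 and 11.1 FPKM in Col-0. The lowest dvl1-1D library was thus far above the highest of the other 6, with a mean 109-fold that of bsk36 (log2 fold change 6.79 ± 0.53 (SE), adjusted p = 9.7e-08). All fold changes are on the log2(FPKM + 0.1) scale, which understates the change of low genes, and all adjusted p-values are Benjamini-Hochberg values from limma over all genes tested. BSK3 was at 25.2, 26.6 and 25.4 FPKM in dvl1-1D and at 0, 0 and 0.01 FPKM in bsk36, with 25.7, 29.3 and 28.0 FPKM in Col-0. BSK6 was at 13.97, 17.2 and 13.35 FPKM in dvl1-1D and at 0.75, 0.48 and 0.35 FPKM in bsk36, with 12.6, 15.3 and 16.5 FPKM in Col-0. BSK3 and BSK6 were therefore near Col-0 in dvl1-1D (adjusted p = 0.50 and 0.99 against Col-0), and RTFL18 in bsk36 did not differ detectably from Col-0 (adjusted p = 0.64).

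FPKM summed to between 793581 and 795848 in the dvl1-1D libraries and between 766171 and 772089 in the bsk36 libraries of low R:FR. The number of reads is unknown. From the spacing of the low FPKM of 289 genes, the depth of a library relative to the others was 0.906 to 1.08 in dvl1-1D and 0.921 to 1.19 in bsk36. Summed markers were close between the genotypes for photosynthetic shoot cells (6 genes, 36690 to 39650 FPKM in dvl1-1D and 35150 to 37980 FPKM in bsk36), for dividing cells (5 genes, 120 to 127 and 110 to 129 FPKM) and for the stomatal lineage (8 genes, 53.0 to 57.1 and 47.0 to 53.0 FPKM), all detected in every library. The 10 root markers summed to 141 to 155 FPKM in dvl1-1D and spread from 126 to 198 FPKM in bsk36, highest in replicate 1. In whole seedlings, fewer cells of a type and less RNA per cell cannot be told apart.

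At an adjusted p under 0.05, 1592 genes were called between dvl1-1D and bsk36 in low R:FR, which is 8.24% of those tested. Of these, 670 were higher (3.47% of genes tested) and 922 lower (4.77%) in dvl1-1D. Most differences were small, since 1045 of the called genes had an absolute log2 fold change below 0.5. With a change of 2-fold or more added to the test, 155 genes were called (0.803%), 64 of them higher and 91 lower in dvl1-1D. The 3 and 3 libraries did not overlap for 1559 of the called genes, and they did not overlap for 28.7% of all genes tested. A fit on the 6 libraries alone called 761 genes, and leaving out any single library other than bsk36 replicate 1 gave 855 to 993.

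**Figure D1:**
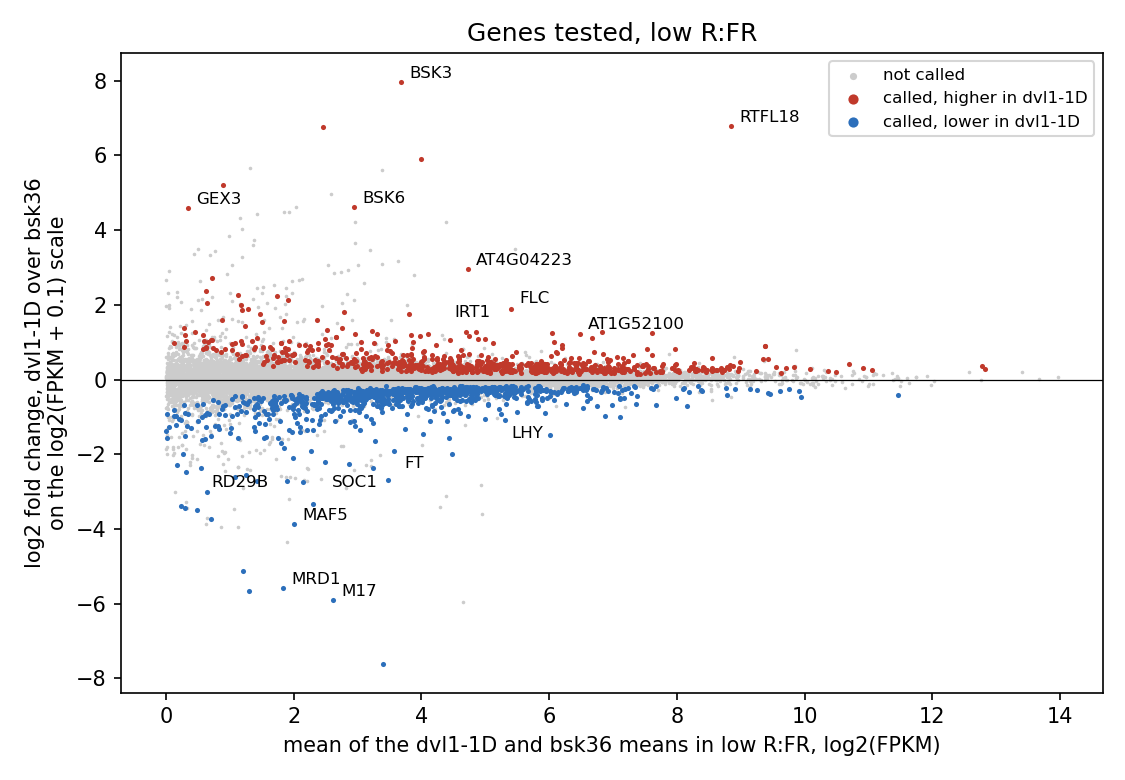
Log2 fold change of dvl1-1D over bsk36 in low R:FR (on the log2(FPKM + 0.1) scale) against the mean level of the genotypes (log2 FPKM), with 1 point for each of the 19311 genes tested. The 670 genes called higher in dvl1-1D are red, the 922 called lower are blue, and most lie within 0.5 of zero, while RTFL18, BSK3, BSK6 and a group of low-level genes lie far outside.

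The floral repressor FLC, a MADS-box factor that holds back flowering, was among the most precisely separated genes. FLC was at 67.2, 66.6 and 66.9 FPKM in dvl1-1D, against 16.3, 17.61 and 20.5 FPKM in bsk36, and at 19.2, 17.9 and 17.9 FPKM in Col-0. Its dvl1-1D libraries all lay more than 3-fold above every other one (log2 fold change 1.89 ± 0.08, adjusted p = 8.8e-12), and bsk36 did not differ detectably from Col-0 (adjusted p = 0.92). SOC1, a floral activator that FLC is known to repress, went the other way, with 2.54, 2.65 and 2.11 FPKM in dvl1-1D, against 10.6, 12.1 and 13.7 FPKM in bsk36, and 11.7, 8.60 and 10.5 FPKM in Col-0 (log2 fold change -2.27 ± 0.15, adjusted p = 8.5e-09). FT, the mobile flowering signal and another known FLC target, was at 4.88, 4.63 and 5.25 FPKM in dvl1-1D, against 20.6, 17.2 and 18.5 FPKM in bsk36, and 19.4, 13.0 and 18.8 FPKM in Col-0 (log2 fold change -1.91 ± 0.27, adjusted p = 1.9e-04). For both genes the dvl1-1D libraries lay below all others, and the bsk36 and Col-0 libraries overlapped.

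The FLC relatives MAF5, MAF4, FLM and MAF2 were lower in dvl1-1D. MAF5 was at 0.54, 0.51 and 0.26 FPKM in dvl1-1D, against 8.26, 6.75 and 7.64 FPKM in bsk36, and at 2.35, 2.68 and 2.44 FPKM in Col-0 (log2 fold change -3.87 ± 0.26, adjusted p = 8.5e-09). Here the 3 genotypes were apart from each other, with bsk36 above Col-0 (log2 fold change 1.56, adjusted p = 0.0027) and dvl1-1D below it (-2.31, adjusted p = 8.9e-06). MAF4 was at 1.44, 2.33 and 2.04 FPKM in dvl1-1D, against 8.46, 7.44 and 11.9 FPKM in bsk36 (adjusted p = 6.8e-07). FLM, at 22.3 FPKM in dvl1-1D and 32.8 FPKM in bsk36 on average, and MAF2, at 23.3 and 33.9 FPKM, were lower by less (adjusted p = 4.4e-04 and 0.043). MAF2 to MAF5 are similar genes in a tandem cluster, so reads may have been split between them. Of 20 flowering genes, a list made after FLC and SOC1 had been seen, 14 were tested, and 1 was called higher and 7 lower, against 3.47% and 4.77% of all genes tested, with a median log2 fold change of -0.45 beside -0.01 over all genes tested. SVP, which acts in a complex with FLC, was at 48.7 FPKM in dvl1-1D and 48.1 FPKM in bsk36 (log2 fold change 0.02, 95% interval -0.14 to 0.18). FLC overlaps an antisense transcript, and without strand information reads from the pair cannot be told apart.

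**Figure D2:**
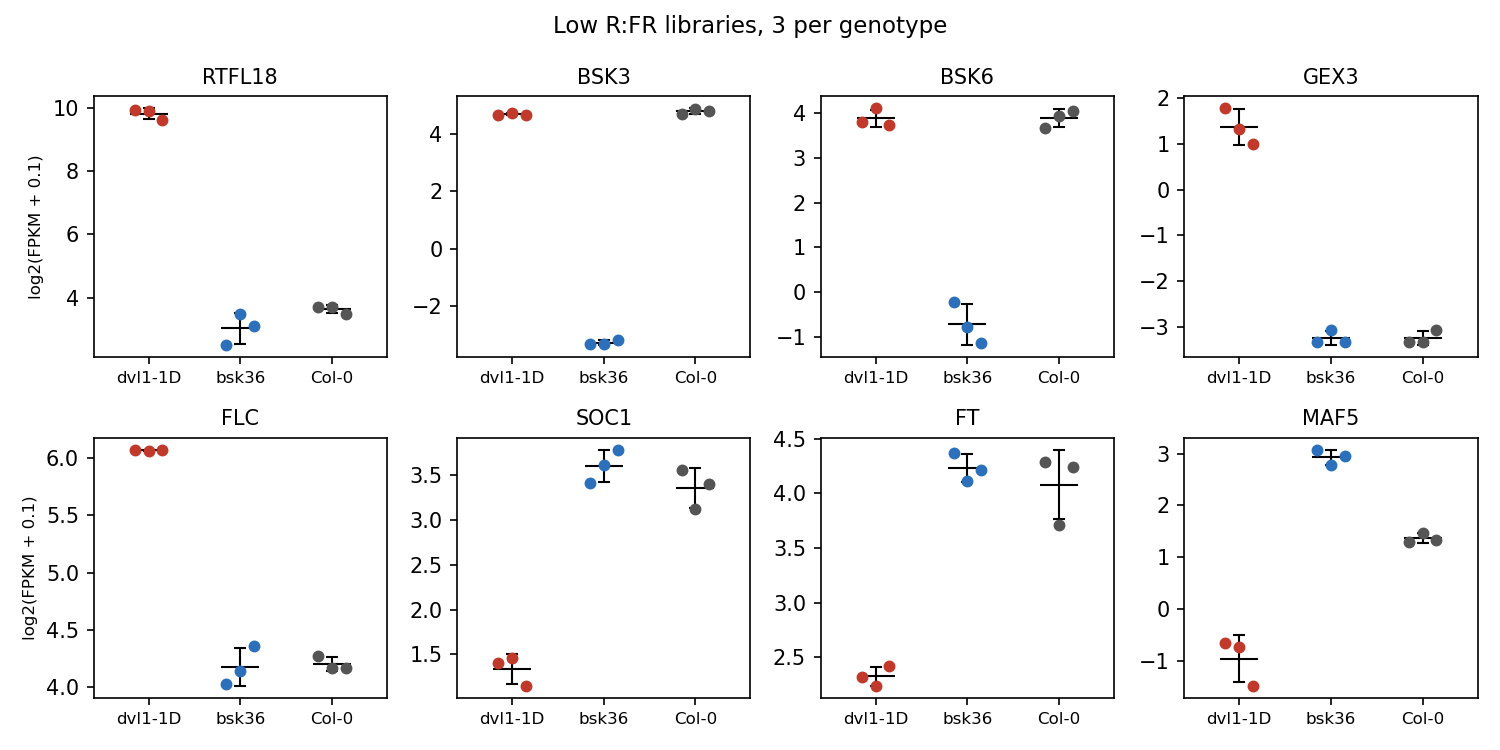
Levels of the mutated genes, of GEX3 next to RTFL18, and of 4 flowering genes as log2(FPKM + 0.1), with a point for each of 3 low R:FR libraries in dvl1-1D, bsk36 and Col-0. Black bars give the mean ± SD, and FLC is high and SOC1, FT and MAF5 are low in dvl1-1D against both other genotypes.

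A group of genes known from maturing seeds, mostly at low levels, was lower in dvl1-1D than in bsk36, with bsk36 above Col-0 in most of them. M17, a gene expressed in late embryogenesis, was at 0.1, 0.24 and 0 FPKM in dvl1-1D, against 13.0, 17.1 and 6.33 FPKM in bsk36, and at 0.09, 0.25 and 0.59 FPKM in Col-0 (log2 fold change -5.90 ± 0.70, adjusted p = 2.3e-05). AT3G17520, annotated as a late embryogenesis abundant (LEA) protein, one of a class of hydrophilic proteins that accumulate as seeds dry, was at 0.57, 1.37 and 0.66 FPKM in dvl1-1D, against 8.90, 8.80 and 9.16 FPKM in bsk36 (adjusted p = 1.9e-04). Its bsk36 libraries were above Col-0 (log2 fold change 3.34, adjusted p = 4.5e-04), while its dvl1-1D and Col-0 libraries overlapped (0.02, adjusted p = 0.98). LEA7 was at 0.85, 1.72 and 0.82 FPKM in dvl1-1D, against 8, 7.25 and 8.03 FPKM in bsk36 (adjusted p = 0.0011), and ECP63 at 0.06, 0.31 and 0.11 FPKM, against 2.69, 3.04 and 3.61 FPKM (adjusted p = 6.4e-06). For both genes Col-0 stayed at or below 1.22 FPKM, near dvl1-1D.

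Of 59 genes whose annotation names late embryogenesis abundant proteins, a list drawn up after their values were seen, 33 passed the filter and 26 were not tested. In dvl1-1D, 12 were called lower and 1 higher, against 4.77% and 3.47% of all genes tested, and the median log2 fold change of the list was -0.17. The filter used these same libraries, so a gene near 0 in dvl1-1D passed only where bsk36 was high, which tilts this count. With a mean of at least 5 FPKM, 3 of 10 tested were called lower, and with no filter 15 of 54. In 11 of the 12, the bsk36 mean lay above the Col-0 mean, and 11 were called lower in WL too. The exception to both was AT1G02820, taken up with the light contrast. The 5 seed storage and oil body markers (CRA1, CRC, OLEO1, OLEO2 and AT2S3) all fell below the filter. Their summed level was 0.17 to 0.51 FPKM in dvl1-1D, 2.27 to 2.62 FPKM in bsk36 and 0.07 to 0.49 FPKM in Col-0, and most of the bsk36 sum came from OLEO2, at 1.54, 1.80 and 1.75 FPKM. Their part in the differences of the LEA genes was not tested. ICL, the isocitrate lyase that lets seedlings turn stored oil into sugar, was at 1.58, 5.99 and 2.61 FPKM in dvl1-1D, against 15.1, 17.58 and 13.8 FPKM in bsk36 (log2 fold change -2.36 ± 0.33, adjusted p = 1.3e-04), and MLS, the next enzyme of the glyoxylate cycle, was at 5.30 and 9.46 FPKM on average (adjusted p = 0.0047). The other 7 of 9 genes of oil breakdown, a list added after values were seen, were not called, among them the lipase SDP1 and the peroxisomal transporter PXA1. The share of this list called lower was 22.2%, against 4.77% of all genes tested.

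Of 9 genes that respond to cold and abscisic acid (ABA), 5 were called lower and none higher in dvl1-1D, against 4.77% and 3.47% of all genes tested, with a median log2 fold change of -0.90. RD29B, a widely used ABA marker, was at 0.86, 1.24 and 0.68 FPKM in dvl1-1D, against 7.17, 6.29 and 5.98 FPKM in bsk36, and at 0.72, 0.73 and 1.64 FPKM in Col-0 (log2 fold change -2.71 ± 0.40, adjusted p = 2.3e-04). RAB18, an ABA-induced dehydrin, was at 11.6, 11.5 and 9.39 FPKM in dvl1-1D, against 34.1, 31.9 and 31.1 FPKM in bsk36, and at 16.7, 20.1 and 22.8 FPKM in Col-0 (log2 fold change -1.57 ± 0.15, adjusted p = 2.2e-06). Both mutants differed from Col-0 in RAB18, dvl1-1D below it (log2 fold change -0.86, adjusted p = 0.0014) and bsk36 above it (0.71, adjusted p = 0.020). The cold gene COR15B was at 1.20, 1.87 and 1.15 FPKM in dvl1-1D, against 7.11, 3.02 and 3.33 FPKM in bsk36 (adjusted p = 0.016), and COR15A was called just below the threshold (adjusted p = 0.0497), both highest in bsk36 replicate 1. Without that library, dvl1-1D replicate 1 or dvl1-1D replicate 3, 3 of the 9 genes were called. COR47, KIN1, KIN2 and LTI30 were not called, with log2 fold changes of 0.04, 0.75, 0.13 and -0.13.

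**Figure D3:**
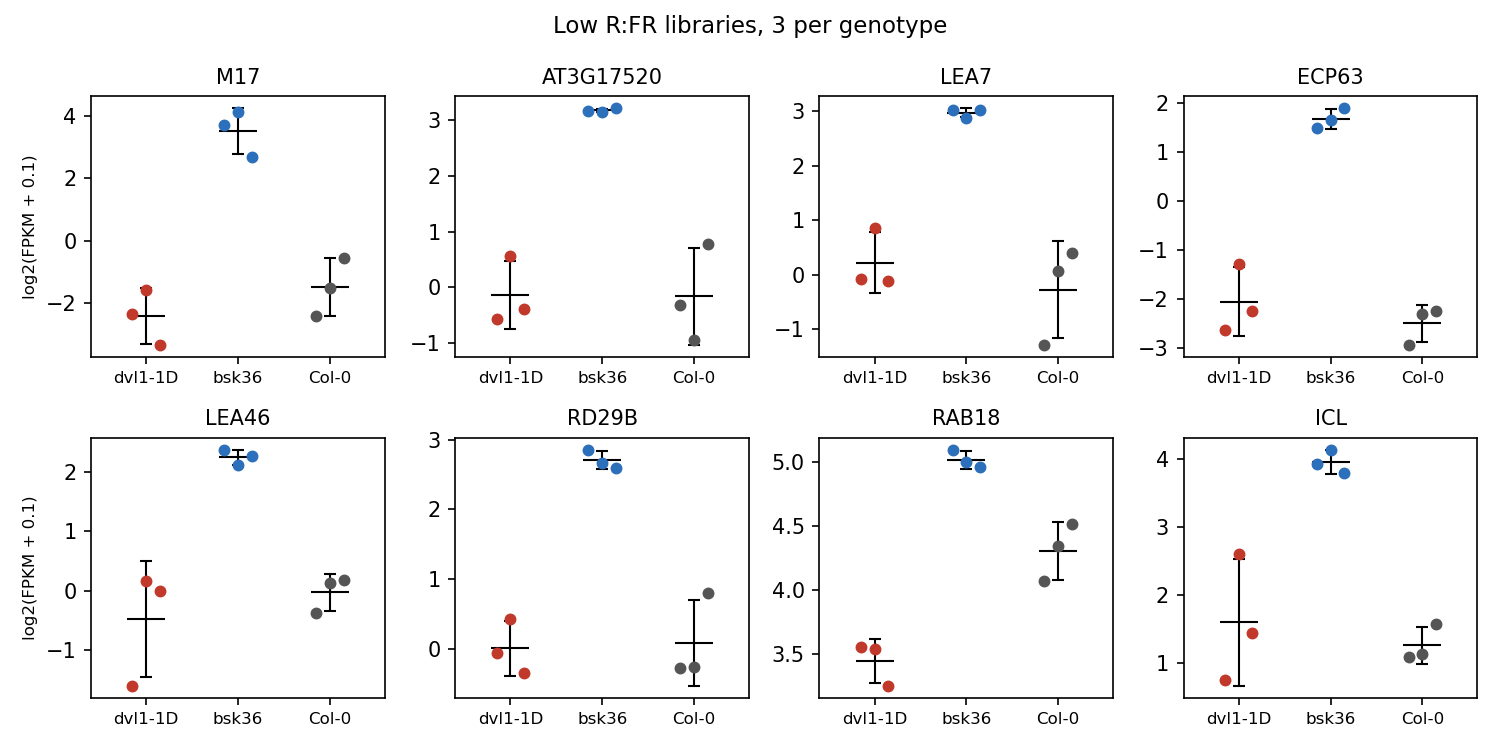
Levels of seed maturation and ABA-responsive genes and of ICL as log2(FPKM + 0.1) in the 3 low R:FR libraries each of dvl1-1D, bsk36 and Col-0, with mean ± SD. In all 8 panels the bsk36 libraries lie above the dvl1-1D libraries, and in all but RAB18 the dvl1-1D and Col-0 ranges overlap.

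The clock genes LHY, CCA1, RVE8 and LNK2 were lower in dvl1-1D. LHY, a MYB-like repressor of the morning loop, was at 28.5, 23.8 and 24.4 FPKM in dvl1-1D, against 47.7, 56.5 and 57.9 FPKM in bsk36, and at 57.3, 49.1 and 47.8 FPKM in Col-0 (log2 fold change -1.08 ± 0.12, adjusted p = 1.7e-05). Its partner CCA1 was at 29.5, 25.3 and 23.6 FPKM in dvl1-1D, against 44.8, 50.4 and 54.9 FPKM in bsk36, and at 54.6, 48.4 and 45.3 FPKM in Col-0 (log2 fold change -0.93 ± 0.11, adjusted p = 3.3e-05). For both, dvl1-1D lay below every library of the other genotypes, which overlapped. RVE8, an activator of evening genes, and its coactivator LNK2 were also lower, with means of 16.1 and 97.3 FPKM in dvl1-1D against 28.9 and 157 FPKM in bsk36 (adjusted p = 4.0e-04 and 0.014). ELF4, a part of the evening complex, was higher, at 110, 119 and 114 FPKM in dvl1-1D against 87.3, 81.0 and 74.9 FPKM in bsk36 (adjusted p = 6.5e-04). TOC1, GI and LUX were not called, and the widest of their 95% intervals, that of GI, ran from -0.18 to 0.27. Of the 13 clock genes tested, 1 was thus called higher and 4 lower, against 3.47% and 4.77% of all genes tested, with a median log2 fold change of -0.20.

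The heat shock list had 3 of 5 tested members higher and none lower in dvl1-1D, against 3.47% and 4.77% of all genes tested, with a median log2 fold change of 0.46. HSFA2, the heat-induced transcription factor, was at 1.87, 2.07 and 1.95 FPKM in dvl1-1D, against 0.77, 0.90 and 0.63 FPKM in bsk36 (log2 fold change 1.26 ± 0.24, adjusted p = 0.0027). The means of the chaperone genes HSP90.1 and HSP70T-2 were both 1.41-fold higher (adjusted p = 0.023 and 0.047). Only 1 of the 5 genes was called without dvl1-1D replicate 2 or bsk36 replicate 3. Outside the list, the chaperone gene HSP14.7 was at 4.57, 5.31 and 6.92 FPKM in dvl1-1D, against 1.3, 0.93 and 1.06 FPKM in bsk36 (log2 fold change 2.24, adjusted p = 6.1e-04). The cytosolic HSP70 gene AT3G12580 (MED37C in the file), picked out after its values were seen, was at 37.2, 36.3 and 38.3 FPKM in dvl1-1D, against 17.8, 17 and 15.0 FPKM in bsk36 (adjusted p = 1.4e-05).

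The root iron uptake genes IRT1 and FRO2 were higher in dvl1-1D. IRT1, the iron transporter, was at 37.4, 39.8 and 31.9 FPKM in dvl1-1D, against 23.75, 13.96 and 9.70 FPKM in bsk36, but spread from 13.1 to 44.7 FPKM in Col-0 (log2 fold change 1.29 ± 0.36, adjusted p = 0.032). FRO2, the ferric reductase that works with it, was at 8.47, 8.10 and 7.65 FPKM in dvl1-1D, against 5.45, 2.73 and 2.07 FPKM in bsk36 (adjusted p = 0.020). Neither mutant differed detectably from Col-0 in either gene. The other 9 members of the list were not called, so that 18.2% of the list was called, beside 8.24% of all genes tested. Leaving out any library other than bsk36 replicate 1 ended both calls. Both genes were also called higher in WL (adjusted p = 0.028 for IRT1 and 0.0049 for FRO2). The root markers were also highest in bsk36 replicate 1, and their part here was not tested. CYP82C4, an iron-responsive cytochrome P450 gene, was at 8.23, 7.98 and 6.66 FPKM in dvl1-1D, against 4.24, 2.09 and 1.62 FPKM in bsk36 (log2 fold change 1.60, adjusted p = 0.014). AT5G03545, which RefSeq also names INDUCED BY PI STARVATION 2, was at 8, 9.84 and 14.6 FPKM in dvl1-1D, against 3.94, 2.42 and 2.59 FPKM in bsk36 (adjusted p = 0.0015). LSU1, which responds to sulfur deficiency, was at 2.6, 3.71 and 4.53 FPKM in dvl1-1D, against 1.54, 0.60 and 0.56 FPKM in bsk36 (adjusted p = 0.022), the only one of 12 tested sulfur genes called. This share of 8.33% was near the 8.24% of all genes tested. LSU1 lost its call under 4 of 15 other settings and CYP82C4 under 3 of 16.

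Among genes of aliphatic glucosinolate synthesis, 2 of 10 were called lower and none higher in dvl1-1D, against 4.77% and 3.47% of all genes tested. BCAT4, the first enzyme of side-chain elongation, was at 6.12, 6.93 and 7.20 FPKM in dvl1-1D, against 36.5, 14.1 and 9.64 FPKM in bsk36 (adjusted p = 0.019), and MAM1, the next one, was at 11, 15.2 and 11.97 FPKM, against 36.5, 20.2 and 15.3 FPKM (adjusted p = 0.045). Both were highest in bsk36 replicate 1. None of the 10 was called without that library, dvl1-1D replicate 1 or dvl1-1D replicate 2, and 5 were called without bsk36 replicate 3. In WL, BCAT4 and MAM1 were called lower as well (adjusted p = 0.0041 and 0.0080).

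BR genes gave few calls in low R:FR. Of 18 tested genes of BR signaling, 1 was called (5.56%), and of 14 of BR synthesis and inactivation, 1 (7.14%), both shares near the 8.24% of all genes. The called ones were BKI1, the inhibitor of BRI1, at 8.02, 8.17 and 8.17 FPKM in dvl1-1D and 9.30, 11.01 and 10.4 FPKM in bsk36 (log2 fold change -0.33, adjusted p = 0.035), and DET2, a reductase of BR synthesis, at 10.04, 10.35 and 11.2 FPKM in dvl1-1D and 11.8, 16.2 and 13.2 FPKM in bsk36 (-0.37, adjusted p = 0.042). Each lost its call under 8 of 16 other settings. All 32 genes of these lists had a 95% interval within a 2-fold change in either direction, as had 17625 of all 19311 genes tested. For BRI1 the log2 fold change was -0.15 (95% interval -0.32 to 0.02), for BIN2 -0.03 (-0.15 to 0.10), for BZR1 0.01 (-0.13 to 0.14), and for DWF4, the rate-limiting enzyme, -0.18 (-0.36 to 0.01). The other 7 BSK genes tested were not called, and 14 of the 15 RTFL genes tested were not called, RTFL18 being the exception. Among those 14, RTFL19 had means of 2.64 FPKM in dvl1-1D and 1.13 FPKM in bsk36 (log2 fold change 1.14, 95% interval 0.32 to 1.97, adjusted p = 0.078).

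Shade marker and PIF genes gave no calls in low R:FR. None of 19 tested shade markers and none of the 7 PIF genes was called. All 26 had a 95% interval within a 2-fold change in either direction, as had 17625 of all 19311 genes tested. PIL1, an early shade-induced PIF-like gene, had means of 33.9 FPKM in dvl1-1D and 31.8 FPKM in bsk36 (log2 fold change 0.09, 95% interval -0.24 to 0.42), and the homeobox gene ATHB2 had 62.7 and 69.2 FPKM (-0.14, -0.38 to 0.11). The auxin genes IAA19 and YUC8 had log2 fold changes of 0.00 (-0.25 to 0.26) and -0.04 (-0.42 to 0.34). With an unadjusted P of at most 0.01 and at least a 2-fold change, 422 tested genes were induced and 215 repressed by low R:FR in Col-0 (3.30% of genes tested together). Between dvl1-1D and bsk36, 12 of the induced genes were called higher and 31 lower (10.2% called, median -0.06), RTFL18 itself being 1 of the 12. Of the repressed genes, 21 were called higher and 11 lower (14.9% called, median 0.12). Over all genes tested, 3.47% were called higher and 4.77% lower (8.24% together). FT was one of the induced genes called lower. MSRB6, a methionine sulfoxide reductase gene that was also induced in Col-0, was higher, at 113, 97.2 and 107 FPKM in dvl1-1D against 66.7, 74.7 and 70.0 FPKM in bsk36 (log2 fold change 0.59, adjusted p = 1.9e-04). AT3G28290 and AT3G28300, both repressed in Col-0, shared the same values in every library, 8.99, 10.2 and 7.01 FPKM in dvl1-1D and 4.30, 3.64 and 3.64 FPKM in bsk36, so their reads could not be assigned to one copy.

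Of the study's 194 genes that respond to both BR and low R:FR, 181 were tested. The list was chosen in part on the Col-0 libraries used here, so its direction is not independent evidence. Of the 128 that were higher in Col-0 in low R:FR than in WL, 3 were called higher and 11 lower in dvl1-1D than in bsk36, and of the 53 that were lower, 2 and 5. The shares called, 10.9% and 13.2%, were above the 8.24% of all genes tested, of which 3.47% were called higher and 4.77% lower. FUM2, the cytosolic fumarase, had the smallest p among those lower in Col-0, at 18.5, 16.6 and 17.2 FPKM in dvl1-1D and 32.4, 27.7 and 30.3 FPKM in bsk36 (log2 fold change -0.78, adjusted p = 4.4e-04). Its bsk36 level was above Col-0 (0.54, adjusted p = 0.026), and its dvl1-1D level did not differ detectably from it (-0.24, adjusted p = 0.22).

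In cell wall and auxin families the calls were single genes. Beside 8.24% of all genes tested, 10.7% of XTH, 10.5% of expansin, 5% of IAA and 1.72% of SAUR genes were called. Of the jasmonate and salicylic acid genes given below, 12.5% and 14.3% were called. XTH6, a wall-modifying enzyme gene, was lower, at 115, 110 and 111 FPKM in dvl1-1D against 139, 168 and 181 FPKM in bsk36 (log2 fold change -0.53, adjusted p = 2.4e-04), and XTH28 and XTH19 were higher by 0.24 and 0.49, out of 28 tested. XTH19 lost its call under 9 and XTH28 under 3 of 16 other settings. EXPA2, an expansin of germinating seeds, was at 0.79, 1.95 and 2 FPKM in dvl1-1D against 4.34, 7.58 and 4.93 FPKM in bsk36 (-1.83, adjusted p = 0.011), while EXPA16 was higher (0.67, adjusted p = 0.024), out of 19 expansins. One of 20 IAA genes (IAA8, 0.21), 1 of 58 SAUR genes (AT4G00880, 0.33) and none of 7 GH3 genes was called. Calls ended under 8 of 16 other settings for IAA8, 6 of 16 for AT4G00880, 5 of 15 for EXPA16 and 2 of 15 for EXPA2. The jasmonate genes AOS and JAZ3, of 16 tested, and ICS1, the salicylic acid synthesis gene, of 7 tested, were lower by 0.34 to 0.39. JAZ3 (adjusted p = 0.0498) lost its call under 13 and ICS1 under 5 of 16 other settings, and AOS kept it.

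**Figure D4:**
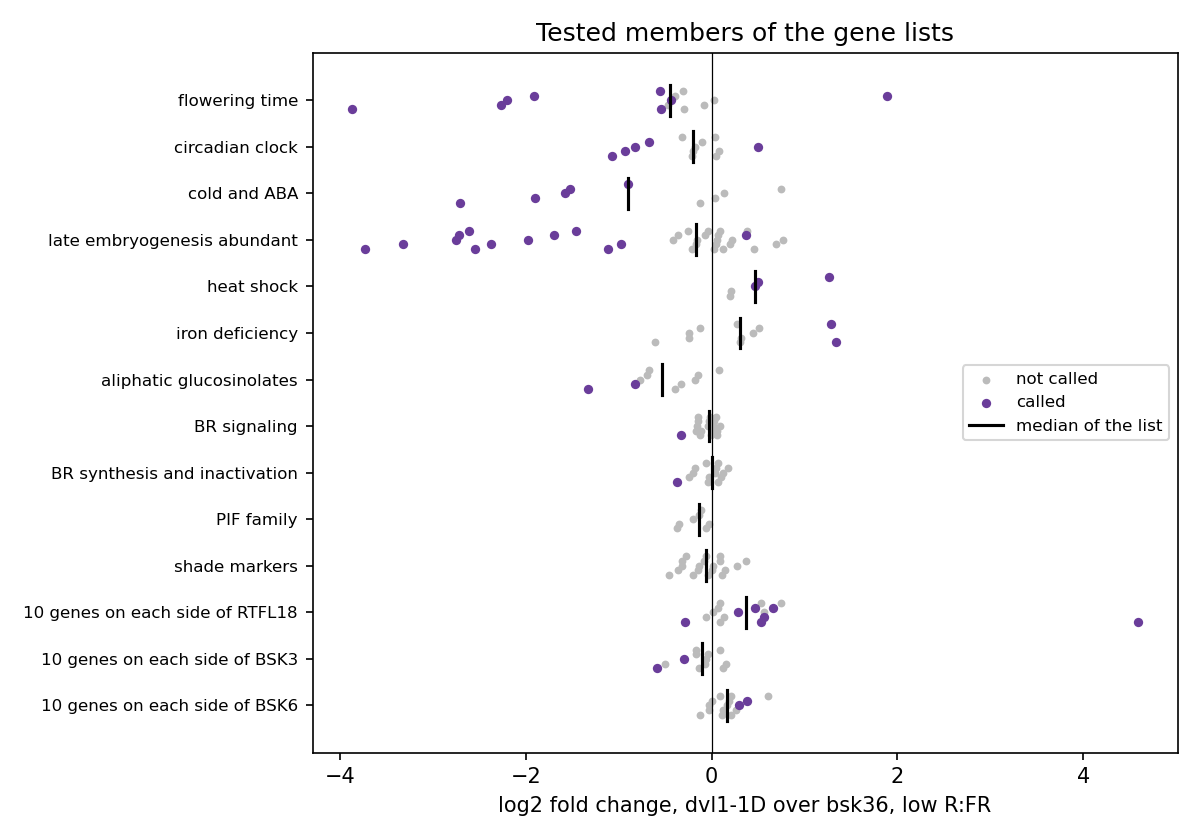
Log2 fold change of dvl1-1D over bsk36 in low R:FR for the tested members of 14 gene lists, with called genes in purple, others in grey and a bar at the median of each list. Flowering, clock, cold and ABA, and LEA genes reach far to the left, while BR, PIF and shade genes stay within 0.5 of zero, the 7 PIF genes all below it.

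Several of the most separated genes belonged to no list. AT1G52100, annotated as a mannose-binding lectin, was at 132, 118 and 126 FPKM in dvl1-1D, against 49.1, 55.0 and 55.6 FPKM in bsk36, and at 50.2, 47.2 and 51.4 FPKM in Col-0 (log2 fold change 1.23 ± 0.06, adjusted p = 3.6e-11). The non-coding RNA AT4G04223 was at 47.6, 50.2 and 42.7 FPKM in dvl1-1D, against 7.75, 6.15 and 4.33 FPKM in bsk36, and at 7.32, 6.98 and 9.20 FPKM in Col-0 (log2 fold change 2.96 ± 0.25, adjusted p = 3.6e-07). In both, dvl1-1D was the genotype apart from the others. AT1G27565, of unknown function, was at 8.56, 13.4 and 10.9 FPKM in dvl1-1D and listed at 0 in all 3 bsk36 libraries and in all but 1 of the Col-0 libraries, at 0.17 FPKM. AT5G58480, annotated as a glucan endo-1,3-beta-glucosidase, was listed at 0 in all 3 dvl1-1D libraries and at 4.73, 4.67 and 5.37 FPKM in bsk36, with 1.08, 3.48 and 3.60 FPKM in Col-0.

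MRD1, a gene known as lowered in the methionine over-accumulating mutant mto1, was apart in bsk36, at 0, 0 and 0.22 FPKM in dvl1-1D against 6.53, 6.21 and 8.34 FPKM in bsk36, and listed at 0 in Col-0 (adjusted p = 1.8e-09). AT1G75945 was at 3.10, 2.49 and 3.09 FPKM in dvl1-1D and 20.1, 17.3 and 20.7 FPKM in bsk36, against at most 0.15 FPKM in Col-0, so both mutants were above Col-0. Its call ended with a pseudocount of 0.01 (adjusted p = 0.090). The lncRNA AT2G03895 was listed at 0 in dvl1-1D and at 10.5, 28.9 and 23.7 FPKM in bsk36, but at 0, 6.75 and 10.3 FPKM in Col-0, and its call was lost when any library other than bsk36 replicate 1 was left out. The lncRNA AT3G09335 was at 9.28, 4.77 and 4.10 FPKM in dvl1-1D and 1.02, 0.60 and 2.82 FPKM in bsk36 (adjusted p = 0.012), and it overlaps other transcripts. Of the 94 genes named by rule, 25 overlap another gene model, so without strand information their reads may in part be those of the neighbour.

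Cytosolic ribosomal protein genes, a list added after values were seen, had 14 of 189 higher and none lower in dvl1-1D (7.41%, beside 3.47% of all genes), with a median log2 fold change of 0.13. The count depended on single libraries, at 1 without bsk36 replicate 3 and 24 without bsk36 replicate 1. RPS16B led them, at 19.8, 19.4 and 19.4 FPKM in dvl1-1D against 10.5, 9.94 and 8.53 FPKM in bsk36 (log2 fold change 1.01, adjusted p = 1.0e-06). The light-harvesting genes LHCB2.4 (-0.48, adjusted p = 0.0047) and LHCB4.3 (0.65, adjusted p = 0.027) were called in opposite directions, out of 19. This share of 10.5% was near the 8.24% of all genes tested. LHCB4.3 lost its call under 5 of 16 other settings, and LHCB2.4 kept it. In WL, 16 of the 19 were called, beside 15.0% of all genes tested. Their median log2 fold change there was -0.36, beside -0.05 over all genes tested.

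Several genes next to RTFL18 were also higher in dvl1-1D in low R:FR. Of the 10 genes on each side in RefSeq order on chromosome 5, 16 were tested, 6 were called higher and 1 lower, against 3.47% and 4.77% of all genes tested. GEX3, the adjacent gene, known for expression in gametes, was at 3.31, 2.39 and 1.88 FPKM in dvl1-1D, against 0, 0.02 and 0 FPKM in bsk36 and 0, 0 and 0.02 FPKM in Col-0 (adjusted p = 8.1e-04). It passed the filter only through its dvl1-1D libraries, which tilts the count of neighbours called higher. With no filter, 6 of 18 neighbours tested were called higher, and with a mean of at least 5 FPKM, 5 of 12. AT5G16010, annotated as a member of the steroid 5-alpha-reductase family, was at 90.5, 86.4 and 91.1 FPKM in dvl1-1D, against 62.1, 58.6 and 64.1 FPKM in bsk36 and 69.1, 68.2 and 63.0 FPKM in Col-0 (log2 fold change 0.54 ± 0.08, adjusted p = 2.4e-04). On the other side, AT5G16030 was at 258, 238 and 225 FPKM in dvl1-1D, against 147, 149 and 160 FPKM in bsk36 and 163, 136 and 150 FPKM in Col-0 (0.66 ± 0.09, adjusted p = 1.0e-04). In all these, dvl1-1D lay above both other genotypes.

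The lncRNA AT5G02515 (0.56, adjusted p = 0.016) and AT5G16040 (0.47, adjusted p = 0.0032) overlap AT5G16030, and reads of the 3 may not be told apart. The receptor kinase gene NIK1 was higher by 0.28 (adjusted p = 0.018) and the polyamine synthesis gene SAMDC2 lower by 0.29 (adjusted p = 0.0092). In WL, 3 of the 7 called neighbours of RTFL18 were called in the same direction. NIK1, SAMDC2 and AT5G16030 were not called there, and AT5G02515 was called lower in dvl1-1D (-0.44, adjusted p = 0.037). Around BSK3, 2 of 12 tested neighbours were called lower (AT4G00750 and APRR8), against 4.77% of all genes tested. Around BSK6, 2 of 15 were called higher (AT3G53950 and FLN1), against 3.47%. Their absolute log2 fold changes were 0.29 to 0.59. AT4G00750 and AT3G53950 each lost the call under 6, APRR8 under 5 and FLN1 under 4 of 16 other settings.

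The same genotypes in WL, which share no library with the low R:FR comparison, tell how far the difference depended on the light. In WL, 2896 genes (15.0%) were called between dvl1-1D and bsk36, 1009 higher and 1887 lower in dvl1-1D, a split that became 1437 and 1191 under median-ratio scaling. Of the 1592 genes called in low R:FR, 1479 (92.9%) had the same sign in WL, and 880 were called there in the same direction, which is 55.3% of the low R:FR calls and 30.4% of the WL calls. Across all genes tested, the log2 fold changes of the light conditions had a Pearson r of 0.445, a description over genes that are not independent. Of the 155 genes with at least a 2-fold change, 151 had the same sign in WL and 110 were called there in the same direction. The share of all genes tested with the same sign in both lights was not counted, so these same-sign shares have no background beside them. In WL, 6 of 14 genes of BR synthesis and inactivation, 5 of 19 shade markers and 2 of 7 PIF genes were called. In low R:FR these lists had 1, 0 and 0 calls. None of the 18 tested BR signaling genes was called in WL. FLC was at 67.3, 61.2 and 61.5 FPKM in dvl1-1D and 15.1, 14.9 and 12.9 FPKM in bsk36 in WL, SOC1 at 1.92, 2.57 and 2.46 FPKM and 14.2, 15.0 and 10.7 FPKM, so both stood apart in either light.

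**Figure D5:**
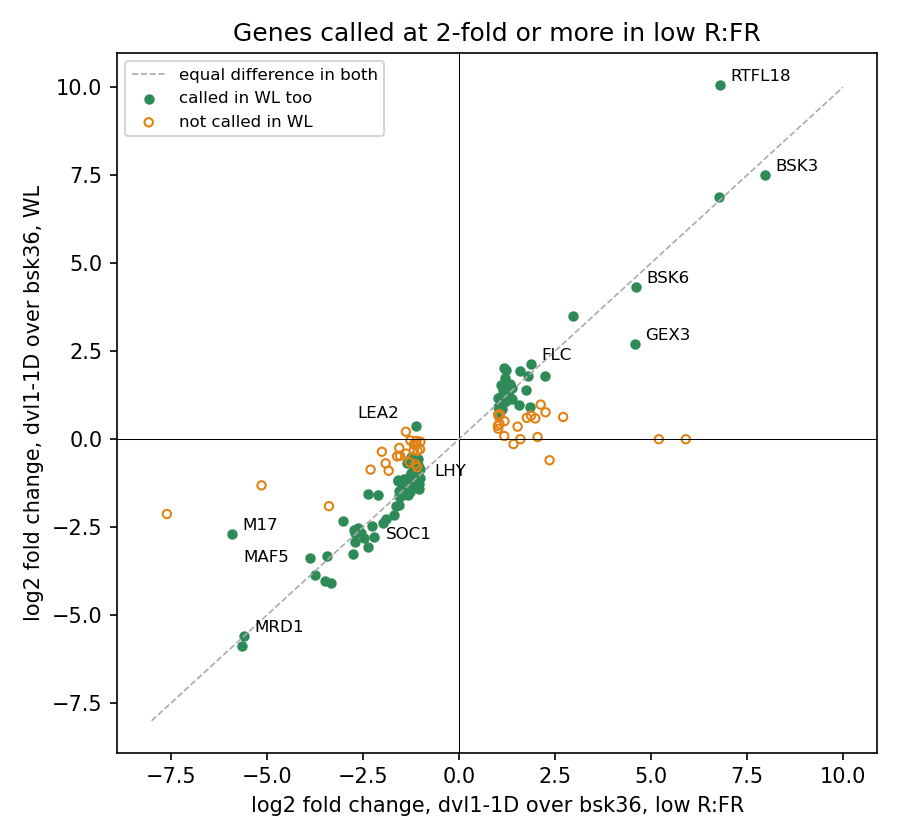
Log2 fold change of dvl1-1D over bsk36 in WL (vertical) against low R:FR (horizontal) for the 155 genes called with at least a 2-fold change in low R:FR. Filled points (called in WL too) lie on both sides of the dashed line of equal differences, with RTFL18, M17, GEX3 and LEA2 further from it than 1 on the log2 scale, and 151 of the 155 genes have the same sign in both.

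The interaction of genotype and light, the difference in low R:FR minus that in WL, was called for 22 genes (0.114%), 7 positive and 15 negative (3 and 4 under median-ratio scaling), and 1817 genes had an unadjusted p under 0.05. AT1G02820, a LEA gene (LEA2 in the file, LEA3 in RefSeq), was at 15.1, 11.6 and 13.1 FPKM in dvl1-1D against 24.6, 30.1 and 31.9 FPKM in bsk36 in low R:FR, but at 39.9, 34.4 and 36.0 FPKM against 26.5, 31.8 and 26.9 FPKM in WL. The genotype difference thus turned round (interaction -1.49, adjusted p = 2.4e-04). AO, the aspartate oxidase of NAD synthesis, was at 15.6, 14.6 and 14.4 FPKM in dvl1-1D against 23.0, 26.4 and 24.5 FPKM in bsk36 in low R:FR, while the genotypes overlapped in WL. PORB, a protochlorophyllide reductase of chlorophyll synthesis, differed between the genotypes mainly in WL. It was at 309, 301 and 329 FPKM in dvl1-1D and 341, 338 and 352 FPKM in bsk36 in low R:FR (adjusted p = 0.17), and at 213, 213 and 228 FPKM in dvl1-1D and 357, 376 and 362 FPKM in bsk36 in WL. ENODL2, an early nodulin-like protein gene, was at 117, 119 and 122 FPKM in dvl1-1D against 164, 169 and 173 FPKM in bsk36 in low R:FR, and overlapped in WL.

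RPI2, a ribose-5-phosphate isomerase gene, was lower in dvl1-1D in low R:FR (log2 fold change -0.33, adjusted p = 0.0028) and higher in WL (0.30, adjusted p = 0.0032). RTFL18 itself had a larger log2 fold change in WL (10.07) than in low R:FR (6.79), a difference that did not pass the test (interaction adjusted p = 0.079). In WL it was at 618, 517 and 528 FPKM in dvl1-1D and 0.45, 0.55 and 0.28 FPKM in bsk36, so its level differed by a larger factor between lights in bsk36 than in dvl1-1D. The neighbour AT5G16030 was at 129, 127 and 124 FPKM in dvl1-1D in WL and 138, 126 and 117 FPKM in bsk36, against the 1.58-fold difference of means seen in low R:FR (interaction 0.66, adjusted p = 0.040).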

How the data were processed

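The authors sequenced whole-seedling mRNA and deposited FPKM for each gene and library. Per the submitters' processing notes, fastp, cutadapt, HISAT2 and DESeq2 were among the tools and TAIR10 was the build, with no versions, and the counting method and its use of strand are not given in the sources used here. Columns of libraries were matched to samples by name, and 8 columns of the authors' group means were not used. limma 3.58.1 (R 4.3.3) was fitted on log2(FPKM + 0.1) to all 24 libraries as 8 groups (dvl1-1D, bsk36, Col-0 and pif47 in each light), with a mean-variance trend and Benjamini-Hochberg adjustment, for genes with a mean of at least 1 FPKM. The script was tested on simulated data. Named genes were the mutated genes, the 10 largest changes in each direction without overlap and with at least 5 FPKM in the higher group, the 5 smallest p in each direction and of the interaction, called list members (up to 4 a list) and called neighbours. Members and lists were chosen with earlier results of these data known, and uncalled list members and genes outside this rule were picked after their values were seen. Gene names came from the file and the RefSeq table (TAIR10.1), which held 19254 of the tested genes. Alternatives covered the pseudocount, filter, libraries in the fit, replicate block, scaling, trend, threshold and each library left out.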

Additional observations from a re-analysis of the deposited data

Results flagged for a closer look

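For 7 named genes the difference between dvl1-1D and bsk36 differed between low R:FR and WL by limma's interaction test, given here as low R:FR minus WL on the log2 scale. AT1G02820 (LEA2 in the file) had -1.49 (adjusted p = 2.4e-04), AO -0.86 (adjusted p = 0.0066), RPI2 -0.63 and ENODL2 -0.44 (both adjusted p = 0.0043). PORB had 0.61 (adjusted p = 0.0037), AT5G16030 0.66 (adjusted p = 0.040) and its overlapping lncRNA AT5G02515 1.00 (adjusted p = 0.047). The calls of the last pair were each lost under 15 of 22 other settings.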

How the results depend on the processing

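The cause of the following shifts was not tested. Against 1592 genes called in low R:FR, the 6 libraries alone gave 761 (680 of them among the 1592), an unadjusted P of at most 0.01 with a 2-fold change gave 168 (155 shared), and leaving out single libraries gave 855 to 1569 (785 to 1178 shared). The 155 genes with at least a 2-fold change became 99 with a pseudocount of 1, 263 with no filter and 61 with a mean of at least 5 FPKM. They were 124 to 180 with single libraries left out. In WL, the 2896 calls became 186 at the unadjusted threshold and 1609 to 2010 with single libraries left out (1685 without dvl1-1D replicate 1, 1609 without bsk36 replicate 3), and median-ratio scaling turned 1009 higher and 1887 lower into 1437 and 1191. The 22 interaction calls became 53 at 5 FPKM, 7 (3 positive, 4 negative) with median-ratio scaling, 35 with quantile normalization, 12 without a trend, 49 at the unadjusted threshold and 7 to 53 with single libraries left out (7 without bsk36 low R:FR replicate 2, 53 without bsk36 low R:FR replicate 1). Other settings stayed within 1.5 times each count. Same-numbered libraries of the genotypes correlated at -0.04, 0.07 and 0.10 in their deviations from group means, so the numbers were not taken as pairs, and with the replicate block the counts were 1577, 154, 15 and 2876. None of 101 named values changed sign. Of the 100 that were called, 56 kept their call under every setting and 44 lost it under at least 1, and PORB in low R:FR, not called, passed with quantile normalization (adjusted p = 0.019). Read depth is unknown, so counting error of low genes is unknown.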
